A study of Arabidopsis thaliana with 72 samples.

Results

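This account describes how roots carrying the label phr1phl1phl2phl3, the quadruple mutant, responded to growth without phosphate. All genes of the deposited table were set side by side in 3 libraries grown without phosphate (-Pi) and 3 grown with phosphate (+Pi), which are 6 of the 72 libraries of the series, and were picked by their label alone. The plant was Arabidopsis thaliana, sampled as roots of 8-day-old seedlings from plates with sucrose. The quadruple mutant is labelled as carrying mutations in PHR1, PHL1, PHL2 and PHL3. PHL4 is not named in that label. For comparison the wild type (Col) and the triple mutant phr1phl1phl2 are used, each with 3 -Pi and 3 +Pi libraries. The series describes the replicates as biological, and the labels do not say whether they came from separate plates. The p-values and standard errors therefore measure spread between libraries of a group. That spread was estimated for each gene from all 72 libraries, not from the compared libraries alone. The labels used here name no alleles and do not say whether a line goes back to 1 plant. Plates were set with agar or agarose, and which library came from which is not stated.

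PHR1 and its PHL relatives are transcription factors that bind a short promoter sequence in phosphate starvation genes. In phosphate-fed cells SPX proteins, loaded with inositol pyrophosphates, hold them back. When phosphate runs out they are released and raise genes for phosphate uptake, for recovery of phosphate from nucleic acids and lipids, and for microRNA399, which lowers PHO2, an enzyme that marks phosphate transporters for destruction.

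Values are RPKM (reads per kilobase of gene, scaled to the reads of the library). Log2 differences are -Pi minus +Pi of log2(RPKM + 1) with their standard error, n = 3 libraries per group, which understates changes of low genes. A ± beside a mean in RPKM is the standard deviation of the 3 libraries of that group. Adjusted p-values are from limma over 21206 genes. A gene was called higher or lower where its log2 difference was 1 or more in size and its adjusted p was under 0.05.

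Transcripts of the mutated genes themselves come before the response. PHR1 read 3.12, 3.45 and 3.49 RPKM in -Pi roots and 2.61, 2.52 and 2.1 RPKM in +Pi roots, against Col means of 18.9 and 24.2. PHL1 read 2.49, 2.35 and 2.32 RPKM and 3.31, 3.14 and 3.67 RPKM in -Pi and +Pi, against Col means of 6.09 and 7.92. PHL2 read 2.3, 4.03 and 2.31 RPKM in -Pi and 1.38, 1.39 and 0.884 RPKM in +Pi, against Col means of 34.3 and 17.6. All 3 were below their Col means in every library with the label. PHL3 was not, being above the Col mean in all 3 -Pi libraries and under it in all 3 +Pi libraries. It read 10.01, 16.4 and 10.9 RPKM in -Pi and 6, 5.45 and 6.67 RPKM in +Pi, against Col means of 5.45 and 9.47. Results are therefore given by label, as those of quadruple-labelled roots, with no claim that PHL3 was lost. PHL4 read 9.75, 8.3 and 9.48 RPKM in -Pi and 14.8, 15.6 and 17 RPKM in +Pi. None of the 5 genes was called for the medium (log2 0.35 ± 0.14 for PHR1, -0.37 ± 0.12 for PHL1, 0.79 ± 0.16 for PHL2, 0.91 ± 0.26 for PHL3 and -0.72 ± 0.21 for PHL4). The annotation used does not pair the names PHL2, PHL3 and PHL4 with loci. They were taken as AT3G24120, AT4G13640 and AT2G20400. PHR1 overlaps a neighbouring gene, and the labels state no strand.

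An estimate of depth, from the size of 1 read in genes of 1 exon, gave 18200000 to 32300000 reads in these 6 libraries. Root markers were present, among them the endodermal gene CASP1 (69.5 and 77.4 RPKM in -Pi and +Pi means) and the root hair gene EXPA7 (52.9 and 65.4), and no marker of the 7 cell types checked was at 0 in any library. In bulk roots fewer cells of a type and less RNA per cell cannot be told apart. The libraries differed in how their values depended on gene length. The slope of log2 values on log2 length was -0.0037, -0.405 and -0.0869 in the -Pi libraries and 0.249, 0.325 and 0.28 in the +Pi libraries. The -Pi replicate 2 stood apart within its group. Chloroplast genes took 0.357% of its summed RPKM, against 1.63% and 1.38% in the other -Pi libraries and 1.09%, 1.19% and 1.12% in the +Pi libraries. Of the libraries used for comparison, Col +Pi replicate 1 (slope -0.421, chloroplast share 0.164%) and triple +Pi replicate 2 (slope -0.365, 0.298%) stood apart from their groups in the same way. Since all +Pi libraries lean to long genes and no -Pi library does, this trend and the medium cannot be told apart, and counts are given both as deposited and after each library's trend on length and GC content was removed ("corrected" below).

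Many genes differed between the -Pi and +Pi libraries of quadruple-labelled roots, where the length trend goes with the medium. 3536 genes were called higher (16.7% of 21206 tested) and 923 lower (4.35%), 21.0% together, and in 13976 genes (65.9%) the -Pi and +Pi libraries did not overlap. Of the called genes 79.3% were higher as deposited. With libraries rescaled by their median ratio 2339 and 1661 were called higher and lower (58.5% higher), with the length trend removed 1455 and 1627 (47.2%), and with length and GC removed 1301 and 1495 (46.5%). The median of all genes was a log2 of 0.25 as deposited, 0.05 rescaled and -0.01 corrected. Rescaling and correction each level the libraries against one another, so the smaller medians and the more even split are largely set by these steps. 1181 genes were called higher and 673 lower both as deposited and corrected. Whether more genes were called higher or lower in the whole table depended on the processing. By length, 35.7% of the 2097 genes of 836 to 1092 bases were called higher, against 2.48% of those over 3166 bases. After correction these shares were 6.92% and 3.95%. Without -Pi replicate 2 the counts as deposited were 3337 and 853. In Col 1323 genes were called higher (6.24%) and 1738 lower (8.20%), or 1209 and 1387 without Col +Pi replicate 1. The test of the difference between the quadruple-labelled and Col responses called 4743 genes with a higher response (22.4%) and 1672 with a lower response (7.88%) in quadruple-labelled roots, 30.3% together. Corrected, these were 2112 and 2373, and without Col +Pi replicate 1, as deposited, 3997 and 1143.

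**Figure D1:**
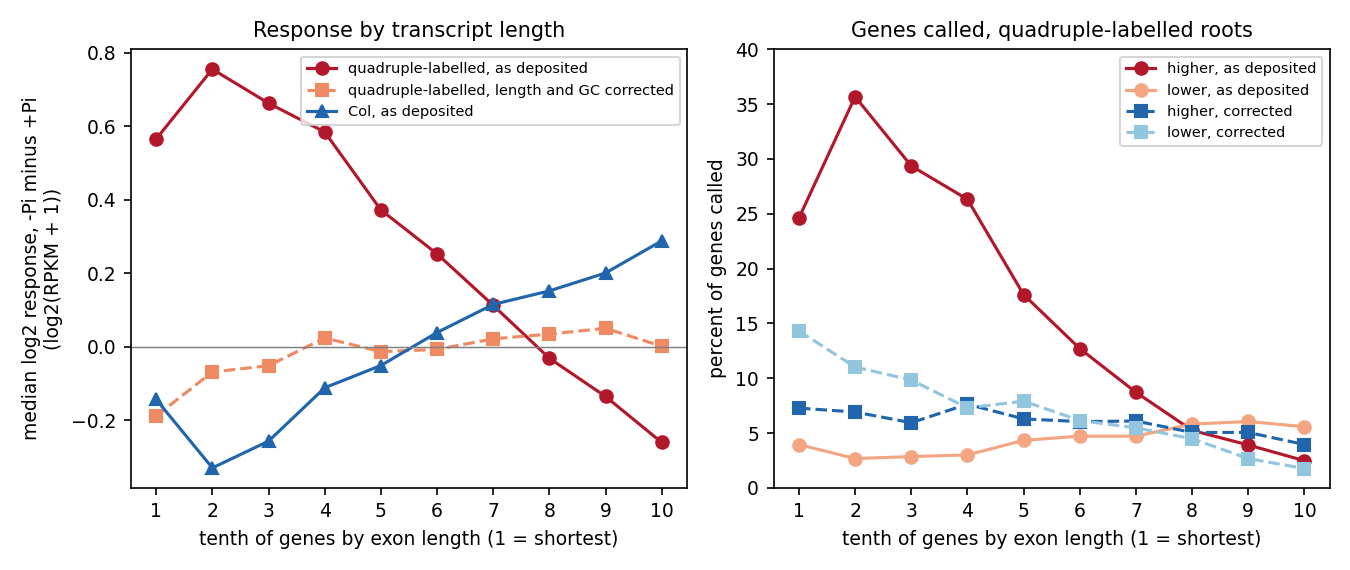
Left, median log2 response to -Pi (y axis, log2(RPKM + 1)) in 10 groups of genes of about equal size by exon length (x axis) in quadruple-labelled roots as deposited, the same corrected for length and GC, and Col. Right, percent of genes in each group called higher or lower in quadruple-labelled roots. As deposited, the median ran from 0.76 in the second group to -0.26 in the longest, while Col ran from -0.33 to 0.29. The corrected medians lie between -0.19 and 0.05, a flatness that the correction itself brings about.

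Sequences of some phosphate genes are given here, read from the RefSeq TAIR10.1 assembly, and their part in the responses was not tested. The first set shows microRNA399 in its mature form and the sites that the non-coding RNAs IPS1 and AT4 hold against it, since IPS1 and AT4 were raised in these roots while the precursors MIR399B, MIR399D and MIR399F were listed at 0. Capitals in the microRNAs mark the seed (bases 2 to 8), which all 5 share. Capitals in the sites mark bases complementary to ath-miR399d when 3 unpaired bases are left opposite its centre, 17 of 21 in either site.
ath-miR399a: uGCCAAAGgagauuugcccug
ath-miR399b: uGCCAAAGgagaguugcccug
ath-miR399d: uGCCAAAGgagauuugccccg
ath-miR399e: uGCCAAAGgagauuugccucg
ath-miR399f: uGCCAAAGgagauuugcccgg
AT4 site, chr5:895149-895172 (+): uuGGGCAAcUucgaUCCUUUGGCA
IPS1 site, chr3:3051224-3051247 (+): uuGGGCAAcUucuaUCCUUUGGCA
The second set shows the 300 bases before the annotated start of 4 genes, chosen after their values were seen. AT4 and PS2 were raised strongly in quadruple-labelled roots. SPX3 was raised far less than in Col, and PHT1;7 stayed near 0. Windows of 3 more genes were read and are not printed. That of SRG3 held 2 matches to the sequence below, and those of SPX1, which was raised strongly too, and SULTR1;3 held 0. Capitals mark matches to GNATATNC, the sequence called P1BS, which reads the same on both strands.
AT4, chr5:894282-894581 (+): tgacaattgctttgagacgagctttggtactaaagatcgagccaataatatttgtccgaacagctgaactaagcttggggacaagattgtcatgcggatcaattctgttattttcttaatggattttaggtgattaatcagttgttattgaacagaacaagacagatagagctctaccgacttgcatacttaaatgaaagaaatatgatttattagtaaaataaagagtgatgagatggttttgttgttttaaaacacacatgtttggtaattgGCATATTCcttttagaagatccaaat
PS2, chr1:27466349-27466648 (-): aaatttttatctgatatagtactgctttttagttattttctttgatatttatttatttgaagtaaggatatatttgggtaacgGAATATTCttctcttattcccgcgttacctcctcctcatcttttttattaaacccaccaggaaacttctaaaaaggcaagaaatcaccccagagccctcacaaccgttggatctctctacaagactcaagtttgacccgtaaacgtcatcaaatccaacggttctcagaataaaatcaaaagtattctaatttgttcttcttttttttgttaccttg
SPX3, chr2:18606110-18606409 (+): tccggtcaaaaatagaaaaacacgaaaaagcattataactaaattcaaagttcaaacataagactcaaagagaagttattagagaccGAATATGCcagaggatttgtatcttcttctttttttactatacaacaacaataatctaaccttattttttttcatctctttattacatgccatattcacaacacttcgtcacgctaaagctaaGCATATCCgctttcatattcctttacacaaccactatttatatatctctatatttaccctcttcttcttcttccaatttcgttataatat
PHT1;7, chr3:20250949-20251248 (-): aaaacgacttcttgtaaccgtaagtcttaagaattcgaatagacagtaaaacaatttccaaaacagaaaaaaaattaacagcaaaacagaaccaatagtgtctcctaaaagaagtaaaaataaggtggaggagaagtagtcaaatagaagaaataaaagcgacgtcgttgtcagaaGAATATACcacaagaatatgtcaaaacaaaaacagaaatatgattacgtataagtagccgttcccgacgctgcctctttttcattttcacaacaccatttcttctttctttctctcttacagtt
P1BS was found in such windows of 13.8% of the 572 genes called higher both in quadruple-labelled roots and in Col, and of 11.6% of the 747 called higher in Col and not in quadruple-labelled roots. Of all 21006 tested genes with a window, 6.66% held it. Of the genes called higher in quadruple-labelled roots and not in Col it was 7.21%. In the 4 phosphate lists described below, it was 40% of 30 genes called higher in quadruple-labelled roots, 42.1% of 19 called higher in Col alone, and 36.6% of all 71 tested. These are descriptions of letters, not of binding.

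A set of phosphate signalling genes rose in quadruple-labelled -Pi roots. Each list count is to be read against the same count over all genes tested. As deposited, 16.7% of these were called higher and 4.35% lower, with a median log2 of 0.25. Corrected, 1301 and 1495 of 21206 were called, with a median of -0.01. In Col it was 6.24% and 8.20%, with a median of 0.02. The difference from Col was called higher in 22.4% and lower in 7.88% as deposited. Of the signalling list, 6 of the 14 members tested (16 in the table) were called higher and 0 lower, median log2 0.56. After correction the counts were 7 and 0, median 0.72. That corrected median also ranks the offsets of MIR399B, MIR399D and MIR399F, which were listed at 0. The Col counts were 9 and 1, median 2.81, and the response was higher than in Col in 3 and lower in 6. AT4, a non-coding RNA that sequesters microRNA399, had the largest increase of all genes tested on this scale. It read 2391, 1435 and 1994 RPKM in the -Pi libraries, against 1.53, 1.5 and 1.22 RPKM in the +Pi libraries (log2 9.62 ± 0.47, limma adjusted p = 6.41e-24). In Col its log2 was 3.48 (means of 4952 in -Pi and 493 in +Pi), and the quadruple-labelled +Pi libraries were far under that Col +Pi mean. IPS1, of the same kind, read 73.1, 36.9 and 55.2 RPKM in -Pi and 0, 0.0961 and 0.356 RPKM in +Pi (log2 5.57 ± 0.31, limma adjusted p = 1.06e-21), where Col means were 2062 and 3.45. The groups did not overlap for either RNA, and IPS1 in -Pi roots stayed under its Col -Pi mean. MIR399D and MIR399B were listed at 0 in all 6 libraries, and MIR399C at 0 in 5 and at 0.483 RPKM in -Pi replicate 2, while Col -Pi roots had means of 91.1, 3.41 and 24.4. MIR827A, precursor of the microRNA that targets NLA, read 2.36, 3.7 and 4.46 RPKM in -Pi roots and had values of 0 in all 3 +Pi libraries, and was called higher (limma adjusted p = 1.05e-05). PHO2, the target of microRNA399, read 381, 199.9 and 359.5 RPKM in -Pi and 177, 191 and 189 RPKM in +Pi, with the -Pi replicate 2 near the +Pi level. Its log2 was 0.70 ± 0.28, not called, and 1.24 with a call when corrected.

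The SPX genes differed among themselves. SPX1, a sensor that holds PHR1 back, read 182, 153 and 185 RPKM in -Pi and 1.29, 1.29 and 1.14 RPKM in +Pi (log2 6.28 ± 0.22, limma adjusted p = 4.56e-30), with no overlap. Its log2 difference was larger than in Col (5.08), by 1.20 ± 0.32, which was called as deposited and not when corrected. SPX2 had means of 46 ± 3.95 RPKM in -Pi and 7.06 ± 0.35 RPKM in +Pi (log2 2.54 ± 0.21). SPX3 read 10.7, 7.39 and 10.2 RPKM in -Pi and 1.11, 0.341 and 0.842 RPKM in +Pi (log2 2.58 ± 0.20, limma adjusted p = 9.49e-16), where Col reached a mean of 650.2 in -Pi. The difference between the responses of SPX3 was -5.87 ± 0.29 (limma adjusted p = 1.74e-23). SPX4 had means of 5.87 ± 0.354 RPKM in -Pi and 6.54 ± 0.435 RPKM in +Pi and was not called (log2 -0.14 ± 0.17), nor was the inositol polyphosphate kinase ITPK1 (0.24 ± 0.11).

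**Figure D2:**
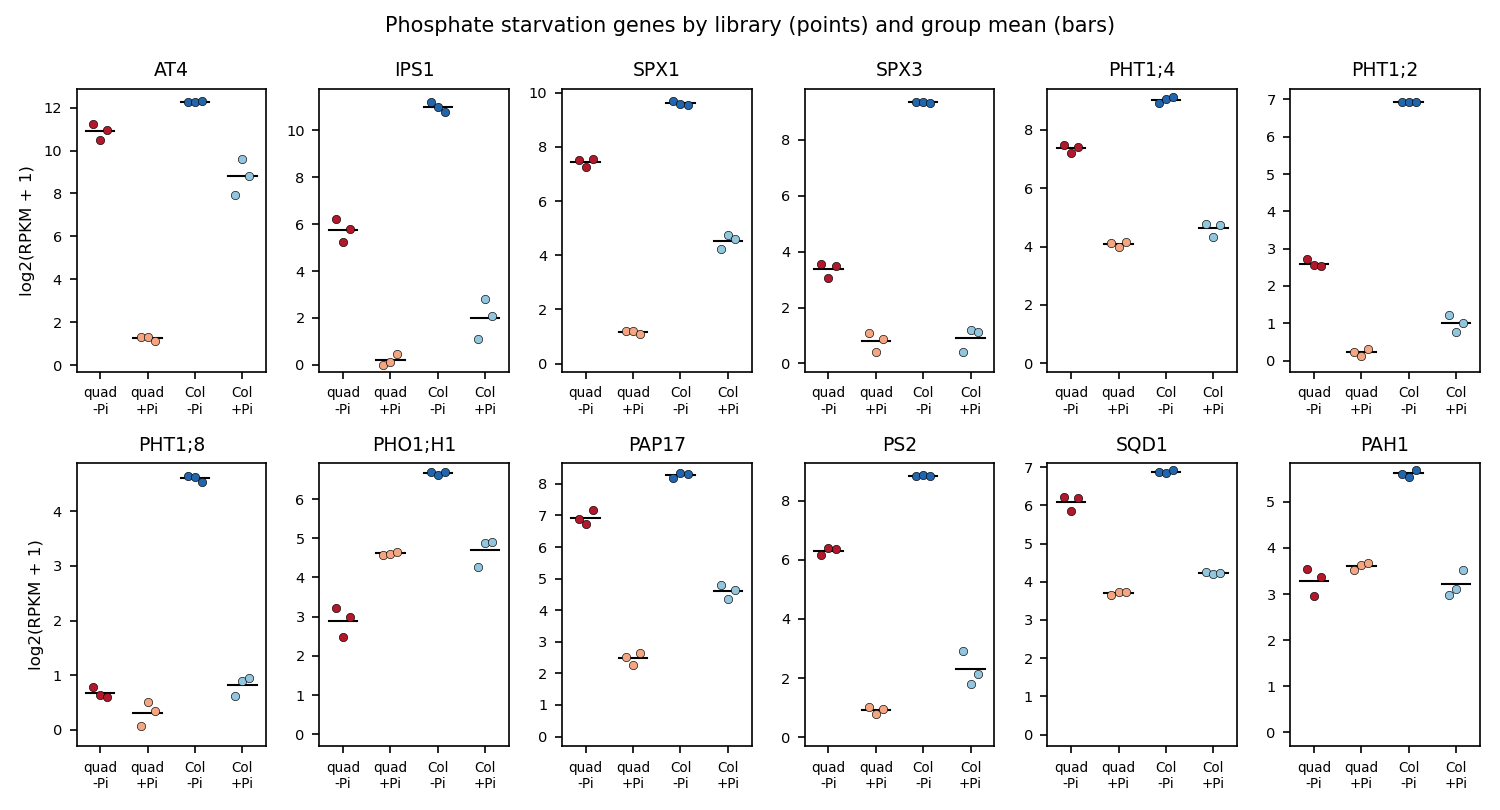
Log2(RPKM + 1) (y axis) of 12 phosphate starvation genes in each library (points) with group means (bars), for quadruple-labelled roots (quad) and Col in -Pi and +Pi. AT4, SPX1, PAP17 and SQD1 are high in all 3 quadruple-labelled -Pi libraries and low in the +Pi libraries, while SPX3, PHT1;8 and PAH1 come close to the Col -Pi level in none of them.

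Phosphate transporters split by gene. Of the 21 members tested (22 in the table) 4 were called higher and 4 lower, with a median log2 of 0.36, and after correction 4 and 4, with a median of 0.33. That corrected median is the value of PHT1;3, a gene listed at 0, and so is an offset of the correction. In Col 12 and 2 were called, with a median of 1.99, and the difference between the responses was called higher in 0 and lower in 10. Of the PHT1 uptake carriers of the plasma membrane, PHT1;4 read 178, 148 and 171 RPKM in -Pi and 16.4, 14.7 and 16.9 RPKM in +Pi (log2 3.29 ± 0.10, limma adjusted p = 7.44e-33), against a log2 of 4.42 in Col (difference -1.13 ± 0.14, called as deposited and not when corrected). PHT1;2 rose as well (log2 2.37 ± 0.13), but to a mean of 5.07 RPKM, where Col -Pi roots had 121. It shares most of its sequence with PHT1;3, so its reads may be shared, and PHT1;3 was listed at 0 in all 6 libraries. PHT1;1 had means of 175 ± 8.22 RPKM in -Pi and 121 ± 6.54 RPKM in +Pi, a log2 of 0.53 ± 0.13 that was not called. PHT1;5, PHT1;7 and PHT1;8, which had means of 14.6, 11.9 and 23.4 in Col -Pi roots, read at most 0.0889, 0.0669 and 0.714 in any quadruple-labelled library. PHF1, which lets PHT1 proteins leave the endoplasmic reticulum, rose (log2 1.79 ± 0.16, means of 66.7 ± 15.5 RPKM in -Pi and 18.2 ± 0.818 RPKM in +Pi), as did the glycerol 3-phosphate carrier gene G3Pp1 (3.07 ± 0.09), whose Col log2 was 3.24.

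4 transport genes fell. The phosphate exporter PHO1, which loads the xylem, read 146, 92.7 and 139 RPKM in -Pi and 300.3, 304 and 317 RPKM in +Pi (log2 -1.31 ± 0.17, limma adjusted p = 2.81e-09). Its relative PHO1;H1 read 8.32, 4.61 and 6.98 RPKM in -Pi and 22.7, 23.4 and 24.3 RPKM in +Pi (log2 -1.71 ± 0.18), whereas in Col it was higher in -Pi (101 against 25.3, log2 1.99). The 2 responses differed by -3.70 ± 0.25 (limma adjusted p = 1.32e-17), and the -Pi and +Pi libraries of the quadruple label did not overlap. PHT2;1, a carrier of the chloroplast envelope, fell (log2 -2.42 ± 0.13, means of 4.34 ± 0.222 RPKM in -Pi and 27.5 ± 0.608 RPKM in +Pi), by more than in Col (log2 -1.19, difference -1.23 ± 0.18, not called when corrected), and G3Pp4 fell (-1.64 ± 0.14). All 4 were also called lower when corrected. With a term for library class (3 classes set by the values) PHO1 was at -0.97 and not called.

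Several enzymes that free phosphate from organic molecules rose. 10 of the 18 members tested (18 in the table) were called higher and 0 lower, median log2 1.22, while after correction the counts were 7 and 0, median 0.45. The Col counts were 11 and 0, median 2.34, and the response was higher than in Col in 2 and lower in 8 (1 and 8 without Col +Pi replicate 1). The acid phosphatase PAP17 read 117, 104 and 142 RPKM in -Pi and 4.79, 3.81 and 5.19 RPKM in +Pi (log2 4.44 ± 0.16, limma adjusted p = 5.7e-30), and its response did not pass the test of a difference from Col (3.68, difference 0.76 ± 0.23). PS2, a phosphatase of phosphoethanolamine and phosphocholine, read 70.2, 84 and 81.2 RPKM in -Pi and 1.05, 0.711 and 0.922 RPKM in +Pi (log2 5.39 ± 0.21). PECP1, of the same kind, read 9.56, 9.89 and 9.29 RPKM in -Pi and 0.0696, 0 and 0 RPKM in +Pi (log2 3.37 ± 0.21), where Col -Pi roots had a mean of 284. The annotation gives PECP1 the symbol PEPC1. PAP12, PAP7 and PAP24 rose (log2 1.75 ± 0.12, 2.07 ± 0.23 and 2.37 ± 0.14). PAP14, PAP23 and PAP25 were listed at 0 in the +Pi libraries and read at most 0.0375, 0.594 and 0.221 in -Pi, against Col -Pi means of 5.25, 9.2 and 3.74. The ribonuclease RNS2 rose (log2 1.95 ± 0.27, corrected 1.16). RNS1, the nuclease BFN1 and RNS3 were called as deposited (log2 1.46 ± 0.19, 1.41 ± 0.29 and 1.04 ± 0.28) and not when corrected (0.41, 0.52 and -0.02). Without -Pi replicate 1 or 3 RNS3 was at 0.98 or 0.93, and PAP7 was at 0.98 with the class term, none of them called. PAP26, the main vacuolar acid phosphatase, was not called (-0.67 ± 0.12).

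Several genes that replace phospholipids with lipids free of phosphorus also rose. Of the 18 members tested (19 in the table) 10 were called higher and 0 lower, with a median log2 of 1.22, and after correction 8 and 0, with a median of 0.65. In Col 13 and 0 were called, with a median of 2.17, or 12 and 0 without Col +Pi replicate 1. The difference between the responses was called higher in 1 and lower in 12. Corrected it was 1 and 9, and without Col +Pi replicate 1, as deposited, also 1 and 9. SQD1, which with SQD2 makes sulfolipid, had means of 67.4 ± 9.58 RPKM in -Pi and 12 ± 0.427 RPKM in +Pi (log2 2.38 ± 0.09). SQD2 had means of 63.9 ± 12.8 RPKM in -Pi and 20.1 ± 1.05 RPKM in +Pi (log2 1.60 ± 0.12). For SQD1 the Col log2 was 2.65, and the difference of -0.27 ± 0.13 was not called, while SQD2 rose by 4.09 in Col (difference -2.49 ± 0.17, limma adjusted p = 1.85e-17). The galactolipid synthases MGD2 and MGD3 rose to means of 8.81 RPKM and 5.21 RPKM (log2 1.97 ± 0.12 and 1.68 ± 0.12), against 42.2 and 126 in Col -Pi roots. The phospholipases NPC4 and PLDP2 rose (log2 1.62 ± 0.17 and 2.46 ± 0.16), with Col log2 values of 5.04 and 4.36. SRG3, a glycerophosphodiester phosphodiesterase, read 173, 217 and 187 RPKM in -Pi and 17.2, 15.1 and 17.4 RPKM in +Pi (log2 3.46 ± 0.12), against a Col log2 of 3.63 (difference -0.17 ± 0.17, not called). GDPD2, of the same enzyme family, rose by 2.31 ± 0.18 where Col had 0.56, a difference of 1.75 ± 0.25 (limma adjusted p = 1.34e-07) that was also called when corrected. GDPD3 and GDPD5 were called as deposited (log2 1.09 ± 0.15 and 1.36 ± 0.19) and not when corrected (0.42 and 0.67). PAH1, a phosphatidate phosphatase that rose in Col (2.41), read 10.7, 6.71 and 9.38 RPKM in -Pi and 10.6, 11.3 and 11.8 RPKM in +Pi and was not called (-0.32 ± 0.16). PAP17, SRG3 and PLDP2 overlap neighbouring genes.

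**Figure D3:**
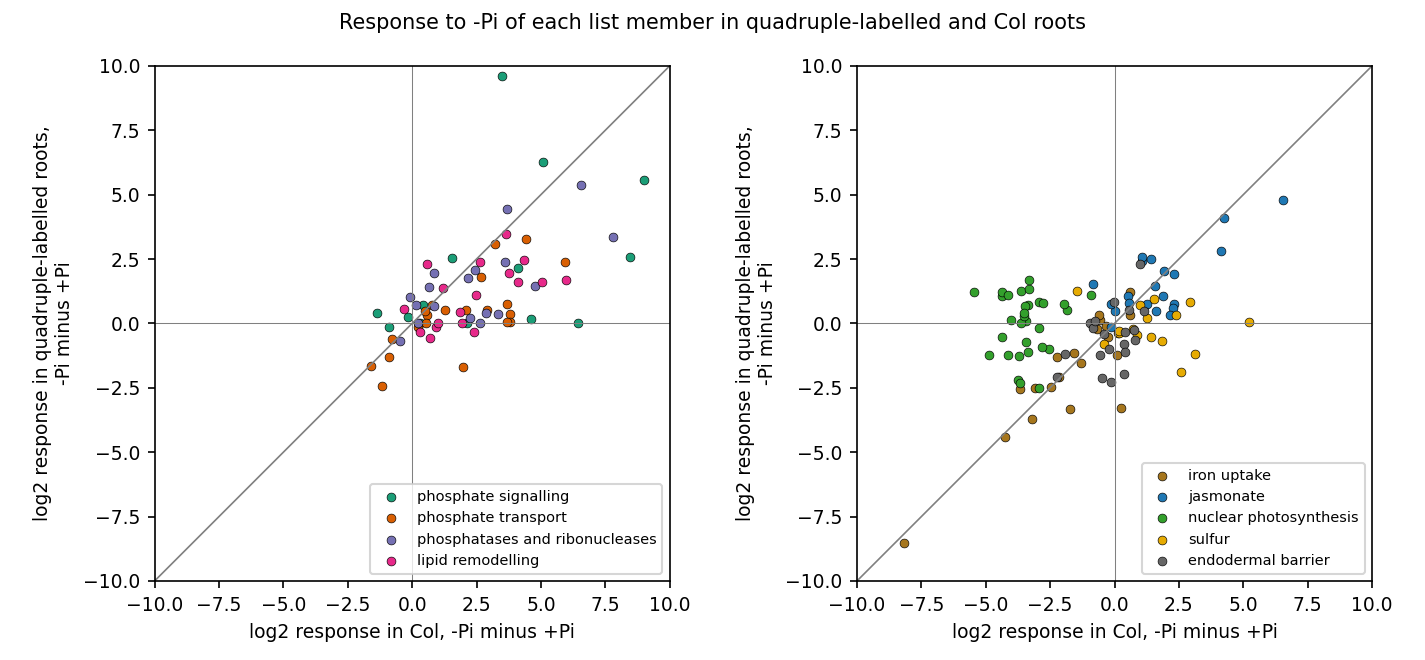
Log2 response to -Pi in quadruple-labelled roots (y axis) against that in Col (x axis), 1 point per list member, log2(RPKM + 1), with the line of equal response. In the left plot the genes raised in Col lie mostly under the line, with AT4, SPX1 and PAP17 among those above it. In the right plot photosynthesis genes are left of 0 in Col and on both sides of 0 in quadruple-labelled roots, and IRT1 and FRO2 lie close to the line of equal response.

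Of the metabolic bypass genes, which spare phosphate in glycolysis and respiration, 6 of 15 tested passed the test as higher and 0 as lower as deposited (median log2 0.88), 4 and 0 corrected (median 0.42), and 9 and 0 in Col (median 1.26). PPCK2, a kinase of phosphoenolpyruvate carboxylase, had means of 45.7 ± 3.42 RPKM in -Pi and 8.23 ± 1.29 RPKM in +Pi (log2 2.35 ± 0.12, corrected 2.09), and the alternative oxidase AOX1A rose (log2 1.55 ± 0.14). The pyrophosphatases PPa1, PPa3, PPa4 and PPa5 were called as deposited (log2 1.35, 1.38, 1.33 and 1.17) and not when corrected, and PPa5 was at 0.98 without -Pi replicate 1 and not called. Of sulfur genes 1 of 16 tested passed the test as higher and 2 as lower as deposited (median log2 -0.26), 1 and 3 corrected (median -0.19), and 9 and 1 in Col (median 1.34), and the response was lower than in Col in 9. The sulfate transporter SULTR1;3 read 0.457, 0.419 and 0.424 RPKM in -Pi and 0.387, 0.449 and 0.294 RPKM in +Pi, with the groups overlapping, against Col means of 45.6 in -Pi and 0.246 in +Pi. SULTR2;1 fell (log2 -1.19 ± 0.18, corrected -0.99 and no longer called, nor without -Pi replicate 2, at -0.98) where it rose in Col (3.12), and the low-sulfur marker LSU3 read 0.748, 1.12 and 0.755 RPKM in -Pi and 7.33, 5.19 and 5.33 RPKM in +Pi (log2 -1.88 ± 0.20) where Col rose (2.60). SULTR2;2 rose (log2 1.26 ± 0.16) where Col fell (-1.48).

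Most iron uptake genes fell. 1 of the 21 members tested (22 in the table) was called higher and 13 lower, median log2 -1.31, while after correction the counts were 1 and 13, median -1.92. The Col counts were 0 and 11, median -1.29, and the response was higher than in Col in 1 and lower in 3 (2 and 3 without Col +Pi replicate 1). IRT1, the root iron transporter, had the largest decrease of all genes tested on this scale. It read 0.0276, 0.0371 and 0 RPKM in -Pi and 377, 400.1 and 349.6 RPKM in +Pi (log2 -8.52 ± 0.21, limma adjusted p = 9.82e-37), and its Col log2 was -8.17 (difference -0.35 ± 0.30, not called). The ferric reductase FRO2 read 2.19, 1.49 and 2.8 RPKM in -Pi and 65.1, 63.8 and 65.6 RPKM in +Pi (log2 -4.40 ± 0.15), the regulator BHLH39 fell (-2.54 ± 0.21), and so did OPT3, which moves iron into phloem (-3.31 ± 0.18). The nicotianamine synthase NAS1 fell (-3.69 ± 0.17, Col -3.22). NAS2 read 0, 0.0572 and 0.257 RPKM in -Pi and 9.96, 8.6 and 10.7 RPKM in +Pi (log2 -3.29 ± 0.16), while Col had 7.59 in -Pi and 6.23 in +Pi, a difference of -3.55 ± 0.22 (limma adjusted p = 3.32e-19). CYP82C4, an enzyme of sideretin synthesis (sideretin is a coumarin that mobilises iron), was listed at 0 in the 3 -Pi libraries and read 41.5, 38.3 and 38.5 RPKM in +Pi. Of coumarin genes 1 of 8 tested passed the test as higher and 2 as lower as deposited (median log2 0.19), 0 and 1 corrected (median 0.18), and 4 and 1 in Col (median 0.55), and F6'H1, the entry enzyme, had means of 46.8 ± 5.75 RPKM in -Pi and 33 ± 2.25 RPKM in +Pi, not called, where Col had means of 163 in -Pi and 41.5 in +Pi (log2 1.95). Of iron storage genes 1 of 10 tested passed the test as higher and 3 as lower as deposited (median log2 0.18), 1 and 3 corrected (median -0.22), and 1 and 2 in Col (median -0.04). The ferritin FER1 read 131, 223 and 140.2 RPKM in -Pi and 31.8, 30.9 and 34.3 RPKM in +Pi (log2 2.27 ± 0.33), with -Pi replicate 2 the highest, while its Col log2 was -0.01 (difference 2.28 ± 0.47, limma adjusted p = 8.6e-05). The vacuolar iron transporter genes VTL1, VTL2 and VTL5 fell (log2 -1.42 ± 0.16, -2.23 ± 0.22 and -1.15 ± 0.35), and VTL5 was no longer called without -Pi replicate 1 or 3 (-0.89 and -0.99).

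Of genes of the root tip response to phosphate and aluminium 4 of 10 tested passed the test as higher and 0 as lower as deposited (median log2 0.61), 2 and 0 corrected (median 0.24), and 1 and 0 in Col (median 0.11; 2 and 0 without Col +Pi replicate 1). The malate channel ALMT1 read 63.6, 54.2 and 65.9 RPKM in -Pi and 10.1, 10.04 and 10.1 RPKM in +Pi (log2 2.48 ± 0.22), against 1.15 in Col (difference 1.33 ± 0.31, limma adjusted p = 0.000431). Its log2 in the triple mutant was 2.90, and the difference from that was not called. The ferroxidase LPR2 rose (1.39 ± 0.09, Col 0.40). STOP2 and STAR1 were called as deposited only (log2 1.16 ± 0.21 and 1.15 ± 0.33, corrected 0.65 and 0.35).

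Many jasmonate genes rose. Of the 22 members tested (23 in the table) 12 were called higher and 0 lower, with a median log2 of 1.08, and after correction 11 and 0, with a median of 1.06. In Col 16 and 0 were called, with a median of 1.49, and the difference between the responses was called higher in 4 and lower in 6. The repressor JAZ10 read 26, 16.8 and 26.4 RPKM in -Pi and 0.381, 0.501 and 0.297 RPKM in +Pi (log2 4.09 ± 0.18, limma adjusted p = 3.82e-26), against 4.26 in Col (difference -0.18 ± 0.25, not called). The aminotransferase TAT3 read 30.6, 33.2 and 29.8 RPKM in -Pi and 0.103, 0.349 and 0.0705 RPKM in +Pi (log2 4.78 ± 0.12), below its Col log2 of 6.53 (difference -1.75 ± 0.17). JAZ1, JAZ6 and the biosynthesis genes AOC1 and AOC3 rose (log2 2.42 ± 0.29, 2.58 ± 0.31, 2.81 ± 0.14 and 2.5 ± 0.26). Of immune genes 5 of 13 tested passed the test as higher and 0 as lower as deposited (median log2 0.34), 4 and 0 corrected (median 0.50), and 4 and 1 in Col (median 0.26). CYP71A12, of camalexin and related synthesis, had means of 13.2 ± 1.02 RPKM in -Pi and 0.0858 ± 0.0326 RPKM in +Pi (log2 3.71 ± 0.11), the regulator WRKY40 rose (2.32 ± 0.16) and so did PAD3 (1.74 ± 0.15) and FMO1 (1.48 ± 0.12). CYP71A12 and CYP71A13 are near-identical, so reads may be split between them.

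Nuclear photosynthesis genes moved both ways. 7 of the 31 members tested (31 in the table) were called higher and 7 lower, median log2 0.30, while after correction the counts were 4 and 9, median -0.10. The Col counts were 0 and 30, median -3.48, and the response was higher than in Col in 29 and lower in 0. Without -Pi replicate 2 the counts in quadruple-labelled roots were 4 and 8. The Rubisco subunit RBCS1A read 100.3, 163 and 127 RPKM in -Pi and 57.2, 49.6 and 55.6 RPKM in +Pi (log2 1.22 ± 0.41, limma adjusted p = 0.00903, corrected 0.75 and not called), with -Pi replicate 2 the highest, where Col had means of 0.422 in -Pi and 64.8 in +Pi. Without -Pi replicate 2 its log2 was 1.05, not called. The difference between the responses was 6.66 ± 0.58 (limma adjusted p = 6.07e-14) and was called when corrected too, as for 28 of the list's 31 genes (29 as deposited). RCA, which activates Rubisco, read 46.7, 49.8 and 47.2 RPKM in -Pi and 242, 235 and 251 RPKM in +Pi (log2 -2.32 ± 0.19, Col -3.66). The light-harvesting genes LHCB1.1 and LHCB2.1 fell (-2.2 ± 0.52 and -2.51 ± 0.41) and LHCA2 rose (1.33 ± 0.31, or 0.99 and not called with the class term). The 6 leaf markers summed to 244 to 376 RPKM in -Pi libraries and 180.3 to 194 in +Pi libraries, none at 0, and their part in these values was not tested. The marker LHCB1.3, named after its values were seen, averaged 136 RPKM in -Pi and 56.2 in +Pi, opposite to LHCB1.1. RBCS and LHCB1 genes have near-identical copies, so reads may be split between them, and RCA overlaps a neighbour.

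**Figure D4:**
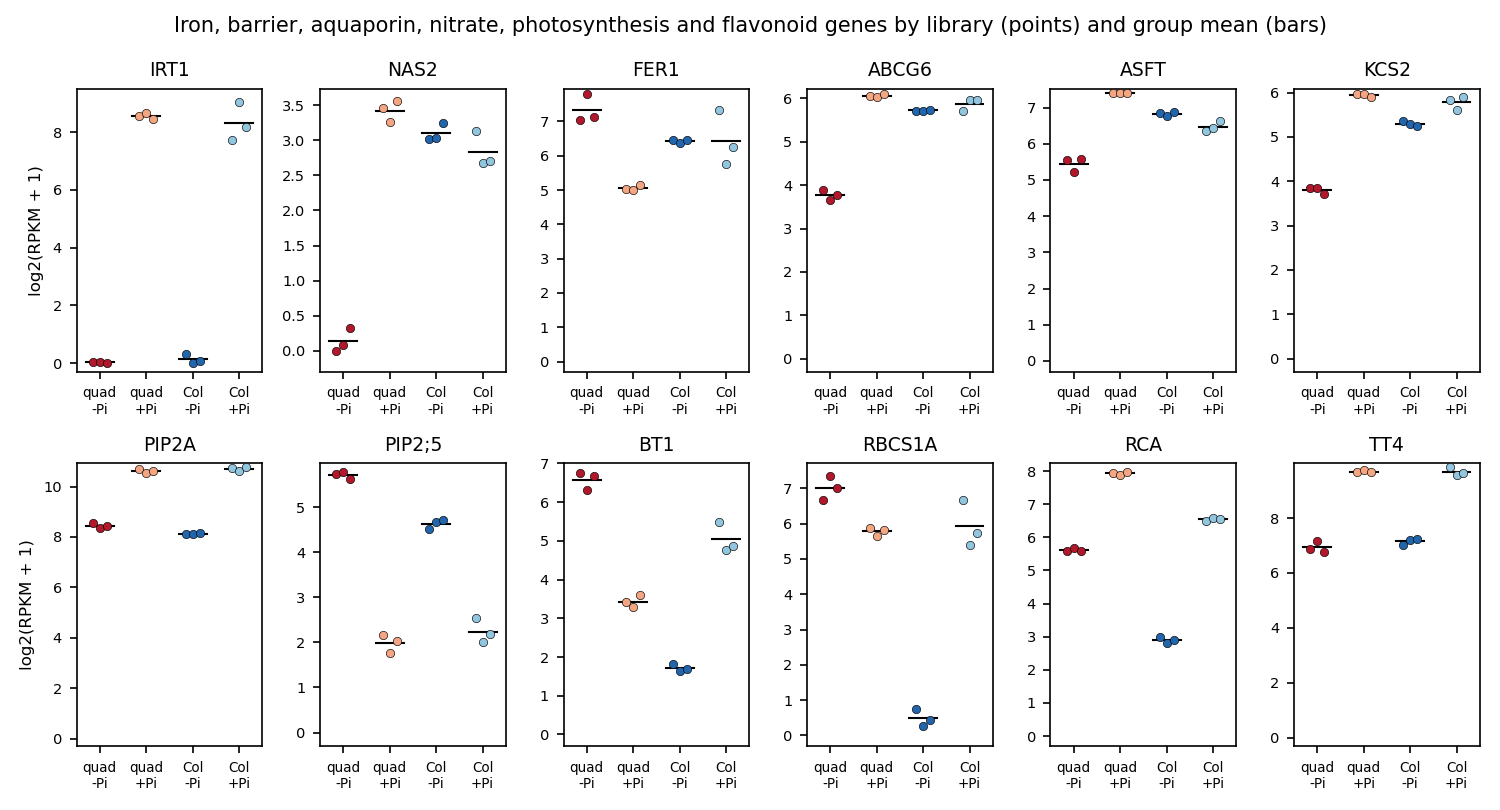
Log2(RPKM + 1) (y axis) of 12 genes of iron uptake and storage, suberin, aquaporins, nitrate, photosynthesis and flavonoids in each library (points) with group means (bars), for quadruple-labelled roots (quad) and Col in -Pi and +Pi. IRT1, PIP2A and TT4 fall in both genotypes, ABCG6 and ASFT are lower in -Pi than in +Pi in quadruple-labelled roots, and BT1 is higher in -Pi in quadruple-labelled roots and lower in -Pi in Col.

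Several genes of the endodermal barriers fell in quadruple-labelled roots. Of the 20 members tested (20 in the table) 1 was called higher and 7 lower, with a median log2 of -0.51, and after correction 1 and 7, with a median of -0.61. In Col 1 and 2 were called (0 and 2 without Col +Pi replicate 1), with a median of -0.08, and the difference between the responses was called higher in 1 and lower in 7. In the triple mutant 2 were called higher and 6 lower, with a median of -0.72. The difference from the triple mutant was called higher in 2 and lower in 4. ABCG6, a transporter of suberin building blocks, read 13.8, 11.6 and 12.8 RPKM in -Pi and 65, 64 and 67.3 RPKM in +Pi (log2 -2.28 ± 0.13, limma adjusted p = 4.66e-21), and its Col log2 was -0.16 (difference -2.12 ± 0.19, limma adjusted p = 9.65e-14). ASFT, which joins ferulic acid to suberin, read 46.2, 36.1 and 47 RPKM in -Pi and 168, 167 and 168 RPKM in +Pi (log2 -1.95 ± 0.11, Col 0.36, difference -2.31 ± 0.15). KCS2, which lengthens suberin fatty acids, fell (-2.14 ± 0.10, Col -0.48, difference -1.66 ± 0.15). These 3 differences were also called when corrected. CASP5, of the Casparian strip, fell (-2.09 ± 0.27, Col -2.23, difference 0.14 ± 0.38, not called), and the reductase FAR1 rose (2.29 ± 0.19). Of the endodermal markers, CASP2 averaged 29.8 RPKM in -Pi and 39.3 in +Pi, and ESB1, which acts in Casparian strip formation, averaged 53 RPKM in -Pi and 104 in +Pi. Neither of these was called, nor was CASP1, and their part in these values was not tested.

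Most aquaporin genes that changed fell. 1 of the 19 members tested (19 in the table) was called higher and 10 lower, median log2 -1.03, while after correction the counts were 1 and 11, median -1.35. The Col counts were 1 and 14, median -1.47, or 1 and 10 without Col +Pi replicate 1. The response was higher than in Col in 7 and lower in 1, but in 3 and 2 when corrected. The plasma membrane channel PIP2A read 373, 325 and 347 RPKM in -Pi and 1671, 1486 and 1577 RPKM in +Pi (log2 -2.18 ± 0.11), and RD28 fell (-3.74 ± 0.18). The vacuolar channels TIP1;1, TIP2;2 and TIP2;3 fell (log2 -1.81 ± 0.19, -1.89 ± 0.23 and -2.39 ± 0.25). PIP2;5 went the other way, with 52.6, 53.7 and 48.5 RPKM in -Pi and 3.49, 2.37 and 3.11 RPKM in +Pi (log2 3.73 ± 0.12), more than in Col (2.4, difference 1.33 ± 0.17). Of flavonoid genes 0 of 7 tested passed the test as higher and 5 as lower as deposited (median log2 -1.82), 0 and 5 corrected (median -1.84), and 0 and 7 in Col (median -2.75). Chalcone synthase, TT4, read 117, 143 and 109 RPKM in -Pi and 809.5, 855 and 813 RPKM in +Pi (log2 -2.75 ± 0.10, Col -2.53), and TT5, F3H, TT7 and FLS1 fell (log2 -1.82 ± 0.26, -2.61 ± 0.17, -1.97 ± 0.13 and -1.63 ± 0.17).

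Of nitrate genes 3 of 13 tested passed the test as higher and 1 as lower as deposited (median log2 0.76), 5 and 1 corrected (median 0.68), and 3 and 5 in Col (median -0.37; 3 and 3 without Col +Pi replicate 1). NRT1.5, which loads nitrate into xylem, read 146, 172 and 155 RPKM in -Pi and 1528, 1516 and 1482 RPKM in +Pi (log2 -3.25 ± 0.10, Col -2.0). The scaffold protein genes BT1 and BT2 rose (log2 3.15 ± 0.15 and 2.42 ± 0.13) where they fell in Col (-3.33 and -3.71), and BT1 read 107, 79.3 and 101 RPKM in -Pi and 9.66, 8.78 and 11.1 RPKM in +Pi. Nitrate reductase NIA2 was called when corrected only (log2 0.90 ± 0.17, corrected 1.85). Of root hair genes 2 of 17 tested passed the test as higher and 0 as lower as deposited (median log2 0.09), 0 and 1 corrected (median -0.02), and 3 and 0 in Col (median 0.29), with RHD6 at 1.5 ± 0.17 as deposited. Of low oxygen genes 4 of 13 tested passed the test as higher and 0 as lower as deposited (median log2 0.55), 2 and 0 corrected (median -0.12), and 1 and 0 in Col (median 0.35). Without -Pi replicate 2 the counts as deposited were 2 and 0. With all libraries the regulator HRE1 rose (1.97 ± 0.23). Of genes of dividing cells and the root tip 4 of 24 tested passed the test as higher and 1 as lower as deposited (median log2 0.47), 1 and 0 corrected (median 0.28), and 3 and 0 in Col (median 0.27; 5 and 0 without Col +Pi replicate 1), and BRN2, a root cap regulator, was the member called in both (1.8 ± 0.31). The 4 root tip markers summed to 64.3 to 70.5 RPKM in -Pi and 49.8 to 54.9 in +Pi and the 2 root cap markers to 17 to 18.8 and 11.5 to 11.9, and their part in these counts was not tested. The 4 root hair markers summed to 194 to 214 in -Pi and 207 to 209 in +Pi, the 3 xylem markers to 129 to 183 and 163 to 181, and the 2 phloem markers to 34 to 42.1 and 28.3 to 30.9. RHD6 and the phloem regulator APL were called higher and the xylem cellulose synthase IRX3 lower among these.

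Of ethylene genes 4 of 16 tested passed the test as higher and 0 as lower as deposited (median log2 -0.05), 2 and 0 corrected (median 0.00), and 1 and 0 in Col (median 0.49). Of cytokinin genes 4 of 18 tested passed the test as higher and 1 as lower as deposited (median log2 0.12), 3 and 3 corrected (median 0.03), and 0 and 2 in Col (median -0.27; 1 and 4 without Col +Pi replicate 1). ARR7, a response regulator, rose (2.11 ± 0.30) where it fell in Col (-1.47), but was not called with the class term (0.80). In the triple mutant ARR7 rose too (2.63). The biosynthesis gene IPT3 rose (1.68 ± 0.15) and IPT5 fell (-1.60 ± 0.13). Of auxin genes 3 of 21 tested passed the test as higher and 0 as lower as deposited (median log2 0.01), 2 and 1 corrected (median 0.07), and 0 and 2 in Col (median 0.11), with IAA1 called in both (2.2 ± 0.28). Of strigolactone genes 2 of 8 tested passed the test as higher and 0 as lower as deposited (median log2 -0.15), 1 and 0 corrected (median 0.13), and 1 and 1 in Col (median 0.19), with LBO1 in both (1.91 ± 0.17). Of abscisic acid and drought genes 1 of 13 tested passed the test as higher and 3 as lower as deposited (median log2 -0.35), 1 and 3 corrected (median -0.62), and 2 and 1 in Col (median 0.27). The phosphatase HAI1 read 1.25, 1.59 and 1.37 RPKM in -Pi and 18.8, 21.4 and 19.6 RPKM in +Pi (log2 -3.12 ± 0.17, Col -0.45, difference -2.68 ± 0.24), and RD29B fell (-2.11 ± 0.12). Of genes often taken as constant 0 of 12 tested passed the test as higher and 2 as lower as deposited (median log2 -0.05), 0 and 3 corrected (median -0.29), and 0 and 0 in Col (median -0.15), with GAPC1 and TUA4 lower (-1.60 ± 0.16 and -1.37 ± 0.13) and their Col log2 at 0.20 and -0.14.

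Among the 12 genes with the largest increase, EARLI1, a lipid transfer protein, read 395, 315 and 392 RPKM in -Pi and 3.92, 4.5 and 3.57 RPKM in +Pi (log2 6.20 ± 0.18) and was not called in Col (-0.76). GSTF6, a glutathione transferase, read 195, 183 and 222 RPKM in -Pi and 4.09, 2.37 and 4.19 RPKM in +Pi (log2 5.49 ± 0.24, Col 3.86). 7 others were highest in -Pi replicate 2, PS2 (given above) by a small margin. AT2G05510, which has no symbol in the annotation, read 2756, 10353 and 2941 RPKM in -Pi (log2 6.96 ± 0.41), and the metallothionein MT2A 325, 802 and 395 RPKM (5.25 ± 0.44). The linker histone HIS1-3 read 157, 510.1 and 199.8 RPKM (5.27 ± 0.44), the defensin PDF2.1 66.3, 213 and 91.7 RPKM (5.80 ± 0.50), the phytosulfokine precursor PSK2 53.9, 159 and 60.9 RPKM (5.49 ± 0.44), and the glycine-rich protein GRP-3 78.9, 239.6 and 129 RPKM (5.40 ± 0.41). In these 7 genes the other -Pi libraries were also above every +Pi library. Among the 12 with the largest decrease, 5 had no symbol. SLAH1, an anion channel of xylem loading, read 2.25, 1.41 and 1.79 RPKM in -Pi and 52.8, 47.9 and 53.6 RPKM in +Pi (log2 -4.23 ± 0.17, Col -5.26). XTH21, a cell wall enzyme, fell (-3.91 ± 0.14, Col -1.86). LHY and CCA1, paired regulators of the morning arm of the circadian clock, fell (log2 -6.14 ± 0.18 and -5.15 ± 0.14), with Col log2 values of -3.87 and -2.90. CCA1 had means of 0.389 ± 0.145 RPKM in -Pi and 48.1 ± 0.732 RPKM in +Pi. The responses of LHY and CCA1 differed from those in Col by -2.28 ± 0.25 and -2.25 ± 0.20, and both differences were called when corrected too.

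Across the table, the response of quadruple-labelled roots was set against that of Col, with no shared libraries. Of the genes called higher in quadruple-labelled roots, 572 were also called higher in Col, which is 16.2% of the 3536 and 43.2% of the 1323 of Col. For genes called lower it was 303, or 32.8% and 17.4% of the 923 and 1738. Opposite calls were as many: 324 genes were higher in quadruple-labelled roots and lower in Col (18.6% of the 1738). The other way round it was 23. Corrected, 427 (32.8% and 29.1% of the lists) were shared among those called higher and 409 (27.4% and 28.1% of the lists) among those called lower. The opposite calls were then 81 and 70. The genes called higher in Col had a median log2 of 0.81 in quadruple-labelled roots (0.50 corrected) and 1.44 in Col. The genes called lower in Col had medians of 0.19 (-0.31 corrected) and -1.44. In the triple mutant, whose label lacks phl3, 2367 genes were called higher as deposited (11.2%) and 696 lower (3.28%), 14.4% together, the same share as in Col. Corrected counts of its own response are not given. Against the triple mutant the test of the difference called 410 (1.93%) higher and 370 (1.74%) lower as deposited, 3.68% of genes together. Corrected, 370 were higher and 498 lower, and with the class term 237 and 385, so that lower responses outnumbered higher ones. Without quadruple-labelled -Pi replicate 2 the counts as deposited were 243 and 235, and without triple +Pi replicate 1 or 3 they were 802 and 455 or 879 and 452. Without triple -Pi replicate 1 they were 241 and 336, and without triple +Pi replicate 2 they were 207 and 379, so that lower responses outnumbered higher ones. In the triple mutant itself 3517 genes were called higher and 734 lower without +Pi replicate 2. AT4, SPX1, PHT1;4 and IRT1, with log2 values of 9.62, 6.28, 3.29 and -8.52 in quadruple-labelled roots, had 8.91, 5.68, 3.55 and -7.61 in triple mutant roots, and none of these 4 differences was called. In the 4 phosphate lists the members called for this difference were SPX3, PHT2;1, PS2 and GDPD2 (-1.02 ± 0.29, -1.25 ± 0.18, 1.33 ± 0.29 and 2.13 ± 0.25). The SPX3 difference was not called without triple +Pi replicate 2 (-0.94, limma adjusted p = 0.053). Of flavonoid genes 5 of 7 had a lower response, among them FLS1 (triple log2 1.62, difference -3.25 ± 0.23).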

How the data were processed

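Root RNA from 12 genotypes in +Pi and -Pi medium gave 72 libraries in 24 groups of 3, from oligo(dT)-selected RNA per the labels' protocols. The authors deposited 1 table of RPKM values. For the steps the authors ran, the submitters' processing notes name TopHat, edgeR and the TAIR10 build, without versions or settings. Strand is not stated, so genes that overlap others are uncertain. Read counts were not used here. Depth, from the size of 1 read in genes with 1 exon, came to 11100000 to 40500000 reads per library.

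The 21206 genes that reached 1 RPKM in 3 or more libraries were tested. limma 3.58.1 in R 4.3.3 fitted log2(RPKM + 1) of all libraries with 1 mean per group, with trend and robust moderation, and p-values were adjusted by the Benjamini-Hochberg method over all genes tested. The fit was tested on simulated data with independent noise. These held no length trend and no library standing apart, so that test cannot speak to either. Correction removed from each library a constant and a spline with 4 degrees of freedom on exon length and on GC content. These were fitted on 15980 nuclear coding genes, with responding genes among them. Corrected values of genes listed at 0 carry that offset. They are not given gene by gene, but they enter the corrected list medians. For phosphate transport the corrected median is itself such a value. Length, GC and sequences came from RefSeq TAIR10.1, which matched 32835 of 33602 genes. Promoters, microRNA sites and P1BS were read there.

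The members, the 27 gene lists and the tests were chosen with earlier results of these data known. The genes named are the PHR1 family, the 12 called genes with the largest change in each direction, the 6 with the largest difference from Col and from the triple mutant in each direction, all members of the 4 phosphate lists and, of each other list, the 6 members with the largest absolute change. Genes without a symbol are counted, with at most 2 given by ID in each direction. A few genes that these rules pick are not reported here. Alternatives were another pseudocount, no filter, rescaled libraries, only the groups compared, a replicate block, the corrections, a library class term (3 classes by k-means), plain moderation and leaving out each library.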

Additional observations from a re-analysis of the deposited data

Results flagged for a closer look

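The response to -Pi differed between quadruple-labelled roots and Col, by limma's test of the difference, in 6415 genes, and between quadruple-labelled and triple mutant roots in 780 genes. Everything in these paragraphs was picked by that test. The 6 genes with the largest positive difference from Col were EARLI1 (log2 6.96), GRP3S (6.70), SEN1 (6.67), RBCS1A (6.66), BT1 (6.48) and PDF2.1 (6.48). SEN1, a gene induced by darkness and senescence, read 30.5, 82.8 and 37.3 RPKM in -Pi and 7, 4.94 and 6.36 RPKM in +Pi, while Col means were 0.517 in -Pi and 23.1 in +Pi. GRP3S, a glycine-rich protein, read 70.1, 241 and 81.5 RPKM in -Pi and 2.74, 2.59 and 2.49 RPKM in +Pi, with -Pi replicate 2 the highest, against Col means of 0.403 and 3.73.

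The 6 genes with the largest negative difference from Col had responses raised in Col. SPX3 differed by -5.87, SULTR1;3 by -5.17, OCT1 by -5.94, AT5G17340 by -4.80 and AT2G45135 by -4.66. OCT1, an organic cation and carnitine transporter, read 0.639, 0.889 and 0.817 RPKM in -Pi and 3.79, 3.7 and 4.59 RPKM in +Pi, against Col means of 233 in -Pi and 10.04 in +Pi. MIR399D was listed at 0 in all quadruple-labelled libraries and in Col +Pi, so its fitted difference of -6.43 is no fold.

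Against the triple mutant the largest positive differences were those of SEN1 (3.87), AT1G19530 (3.42), AT3G45730 (3.37) and RBCS3B (3.15). RBCS3B read 10.6, 27.5 and 10.8 RPKM in -Pi and 4.93, 2.55 and 4.44 RPKM in +Pi, where the triple mutant had a log2 of -1.45. The RBCS3B difference was not called without quadruple-labelled -Pi replicate 2 (2.72), triple -Pi replicate 1 or 2 (2.41 and 2.5) or triple +Pi replicate 2 (2.56), and neither it nor that of AT1G19530 was called when the fit held only the groups compared (limma adjusted p = 0.36 and 0.0804). The largest negative ones were those of AT3G25930 (-4.71), AT1G74453 (-4.59) and MIR775 (-4.58), and 5 further genes without a symbol among the 12 named are not given. MIR775, a microRNA precursor, read 16.3, 2.69 and 12.6 RPKM in -Pi and 49.7, 62.2 and 57.4 RPKM in +Pi, where the triple mutant had a log2 of 2.0. In these 3 the -Pi replicate 2 was the lowest library. No explanation was tested.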

How the results depend on the processing

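The count of genes called higher moved from 3536 to 2339 with rescaled libraries, 1455 with the length trend removed, 1301 with length and GC removed, 1546 with a library class term and 1377 with length and GC removed and without quadruple-labelled -Pi replicate 2, which was added after seeing the data. The count called lower moved from 923 to 1661, 1627, 1495 and 1418 with rescaling, the length correction, the length and GC correction and the added setting. For the difference from Col, 6415 genes became 3573 with the class term and 3875 with the added setting, and for the difference from the triple mutant 780 became 278 when the fit held only the groups compared. Leaving out each library in turn gave 3287 to 3894 genes called higher, 853 to 1086 lower, 5140 to 7225 for the difference from Col and 478 to 1331 for that from the triple mutant, where 478 was without quadruple-labelled -Pi replicate 2 and 1257 and 1331 were without triple +Pi replicates 1 and 3. By direction, the difference from Col was called higher in 2224, 2112, 2394 and 1854 genes, against 4743, with the length correction, the length and GC correction, the class term and the added setting, and lower in 2659, against 1672, with rescaling. The difference from the triple mutant was called higher in 237 and 242, against 410, with the class term and the added setting, in 106 with only the groups compared, where 172 were lower, against 370, and in 207 to 879 leaving out each library. RNS3 turned to -0.024 with length and GC removed, and RGF2 to -0.11, or -0.37 with the added setting, and ARR6 turned to -0.49 with the class term. None of these 4 values passed the test, and their cause was not tested. Of 276 values of named genes, 31 lost their call in the same direction, 2 (RNS3 and RGF2) turned and lost it, and 5 gained one with length and GC removed. Leaving out Col +Pi replicate 1 or triple +Pi replicate 2 for the Col and triple mutant counts was also added after seeing the data.

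Replicate numbers were not shown to pair the libraries: deviations of same-numbered -Pi and +Pi libraries correlated at -0.123, -0.0834 and 0.0273 in the quadruple label, 0.655, 0.666 and -0.278 in the triple mutant and 0.0433, -0.0103 and 0.236 in Col. With the replicate block, 3586 genes were called higher and 921 lower, 6593 for the difference from Col and 1079 for that from the triple mutant (686 higher, against 410, and 393 lower), and none of the named genes changed its call.

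Depth limits low genes: levels under the pseudocount of 1 RPKM give small log2 differences, and a value of 0 does not show that a transcript was absent.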

Other observations

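Circadian clock genes, in 2 lists drawn up after their values were seen, moved apart in quadruple-labelled roots. Of the morning genes CCA1, LHY, PRR7, PRR9 and RVE8, 5 of 5 were called lower (median log2 -3.28), against 4 in Col (median -1.74). LHY read 0.405, 0.0681 and 0.325 RPKM in -Pi and 84.7, 89.7 and 89 RPKM in +Pi. PRR9, a pseudo-response regulator that represses CCA1 and LHY, read 0.672, 0.362 and 0.83 RPKM in -Pi and 13.2, 16.5 and 14.3 RPKM in +Pi (log2 -3.28 ± 0.30). Of the evening genes 5 of 7 were called higher (median 2.36), against 3 in Col (median 0.74). The triple mutant moved in the same directions, with medians of -3.43 for the morning and 1.49 for the evening genes. The difference from the triple mutant was called lower in 2 morning genes and higher in 1 evening gene. ELF4, part of the evening complex, read 249.9, 417 and 275 RPKM in -Pi and 12.6, 13 and 12.3 RPKM in +Pi (log2 4.50 ± 0.21, Col 0.60), with the groups apart. TOC1, which represses the morning genes, read 66, 47.3 and 65.6 RPKM in -Pi and 17.6, 19.3 and 17.4 RPKM in +Pi (log2 1.65 ± 0.14), and PRR3 and PRR5 rose by 2.51 ± 0.11 and 2.43 ± 0.10. GI did not pass the test (log2 -0.93 ± 0.27) where Col rose (1.44), a difference of -2.37 ± 0.38. In the corrected fit the same counts held, 5 lower and 5 higher. The labels used here give no hour of harvest.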
